A study of Mus musculus with 36 samples.

Results

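The blood of 129S1/ImJ mice was compared with the blood of 5 other inbred strains. The comparison uses the arrays hybridised with globin-depleted RNA, 3 from 129S1/ImJ and 3 each from FVB/NJ, DBA/2J, C3H/HeJ, C57Bl/6J and A/J, which is 18 of the 36 arrays in the study. The members are therefore the 3 globin-depleted 129S1/ImJ arrays, set against 15 others. The strain mean of 129S1/ImJ minus the mean of the 5 other strain means is the difference reported throughout, on the log2 scale, where 1 is a 2-fold change.

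All 18 mice were males of 8 weeks, bought a week earlier from one supplier and housed singly until bleeding. No mouse carried an engineered allele or received a treatment other than isoflurane before cardiac puncture, so strain is the only labelled difference between groups. The treatment protocol names the strain 129S1/SvImJ where the strain label reads 129S1/ImJ. Blood went from EDTA into Trizol LS, and a portion of each RNA was depleted of alpha and beta globin mRNA with the GLOBINclear kit. The untreated portion of each mouse's RNA, called whole RNA here, was also hybridised and serves as a check of direction, since it comes from the same animals. An isogenic strain is 1 genotype, and 3 mice describe the spread within it only.

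Whole blood RNA comes mostly from reticulocytes, the young red cells that still carry mRNA, together with platelets and white cells. Reticulocytes carry little beyond globin and the transcripts left from red cell maturation, platelets hold megakaryocyte mRNA without a nucleus, and neutrophils and lymphocytes supply most of the rest. Inbred strains are fixed for different alleles at many loci, and such alleles can leave a gene on in the blood of one strain and off in that of another.

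The regulatory stretch in front of 3 genes is shown because Gdpd3 and Npy gave the largest increases in 129S1/ImJ and Yipf4 the largest decrease. Each is the 250 bases before the RefSeq start in build GRCm38.p6, read 5′ to 3′ on the gene's strand. The reference is a C57BL/6J genome, and the 129S1/ImJ sequence was not used here. Capitals mark matches on either strand to CACCC, letters of a site bound by Krüppel-like erythroid factors, or to TATAAA, letters of the TATA box. A match is by letters only, wherever it lies in the window.
Npy, chr6:49822460-49822709, plus strand: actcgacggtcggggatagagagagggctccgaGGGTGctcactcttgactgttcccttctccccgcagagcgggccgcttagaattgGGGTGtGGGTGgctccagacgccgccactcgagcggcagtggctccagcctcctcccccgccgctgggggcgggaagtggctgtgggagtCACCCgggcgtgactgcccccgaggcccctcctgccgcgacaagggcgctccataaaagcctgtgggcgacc
Gdpd3, chr7:126766164-126766413, plus strand: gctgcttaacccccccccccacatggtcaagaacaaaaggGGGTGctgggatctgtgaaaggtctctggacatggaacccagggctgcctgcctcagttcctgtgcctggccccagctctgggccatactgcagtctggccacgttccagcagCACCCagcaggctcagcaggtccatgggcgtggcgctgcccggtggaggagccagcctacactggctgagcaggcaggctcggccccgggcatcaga
Yipf4, chr17:74489243-74489492, plus strand: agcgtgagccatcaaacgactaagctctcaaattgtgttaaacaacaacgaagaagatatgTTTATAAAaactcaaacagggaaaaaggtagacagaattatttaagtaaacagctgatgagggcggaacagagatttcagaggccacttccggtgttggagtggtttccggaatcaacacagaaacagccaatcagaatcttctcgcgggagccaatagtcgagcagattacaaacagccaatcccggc
The Npy stretch held CACCC once on the printed strand and 3 times on the other. The Gdpd3 stretch held it once on each strand. The Yipf4 stretch held TATAAA once on each strand, in overlapping positions nearer the far end of the window than the RefSeq start. CACCC is common, with 52% of 32851 reference promoters of this length holding it, while TATAAA was in 12.4%. The letters AGATAA (in 9.99% of promoters), AGGAAG (29.5%) and CACGTG (6.02%) were searched too, on both strands, and are not in these 3 windows.

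The deposited values are log2 summaries of 45101 probe sets, and the non-control sets have a median level of 2.89. On the 129S1/ImJ arrays 4466 to 4771 probe sets lay at log2 5 or above, within the range of 3802 to 5278 on the 15 others. Each 129S1/ImJ array correlated at 0.951 to 0.965 with its strain mates. The values were 0.935 to 0.966 in C57Bl/6J and 0.968 to 0.988 in A/J, C3H/HeJ, DBA/2J and FVB/NJ. The error of the fit is pooled over the 6 strains, so it can understate the spread within 129S1/ImJ. Lists of platelet, red cell, lymphocyte, monocyte and neutrophil markers all had mean levels above 2.89 on the 129S1/ImJ arrays. These levels cover only tested members, whose mean over all arrays of the study had to exceed 2.89. The filter thus largely fixes this outcome, which cannot show whether each cell type was detected. A pair of arrays stood apart. Replicate 3 of 129S1/ImJ had far higher neutrophil markers than any other array, and C57Bl/6J replicate 1 had the lowest agreement with its strain mates, so results that rest on either are given without it as well. Fewer cells of a type and less RNA per cell cannot be told apart in bulk blood.

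Against the mean of the other strains, 768 of 11353 genes tested (6.76%) differed at an adjusted p under 0.05, as did 1385 of 22518 probe sets (6.15%). In 129S1/ImJ 423 genes were higher (3.73%) and 345 lower (3.04%), of which 245 (2.16%) and 187 (1.65%) differed at least 2-fold, while the median difference over all genes was -0.03. For 206 genes (1.81%) the difference was called and the 3 arrays lay outside all 15 others, and 199 of these (1.75%) had the same sign in whole RNA, 106 higher (0.934%) and 93 lower (0.819%). These 199 genes had a median size of 1.17 where higher and 1.32 where lower. In whole RNA 44 of the 106 and 37 of the 93 were also called, against 2.03% of all genes tested. The same sign can hold at a whole RNA difference near 0, as for Fastk (0.005) and Nol4l (-0.002). In 17 of the 106 the other strains averaged below 3.5, near the bottom of the scale, and in 17 of the 93 it was 129S1/ImJ that averaged below 3.5. Brighter genes were called more often, from 2.47% of genes with a mean up to 3.5 to 22.5% of genes above 9.

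The count depended on single arrays and on how the spread was taken. Without 129S1/ImJ replicate 3 the number of called genes was 462, and without C57Bl/6J replicate 1 it was 1391. When the 15 other arrays were treated as 1 group, so that differences among the 5 strains entered the error, 259 genes were called. The number outside all 15 other arrays and of the same sign in whole RNA was 199 with every array. It was 268, 342 and 236 without 129S1/ImJ replicates 1, 2 and 3, and 337 without C57Bl/6J replicate 1. Leaving out an array also relaxes this rule, since fewer arrays have to be separated. The 30 genes described below were the 15 most raised and 15 most lowered among called genes chosen for separation. In these, the 3 arrays lay outside all 15 others, and whole RNA gave the same sign. Their lack of overlap is thus a condition of the choice, which also favours keeping the call. Of the 30, 28 kept sign and call under every alternative that gave a p. The 2 exceptions were Gdpd3 and Ankrd33b in the fit with 1 group of other strains. Of all 106 called genes that were named or belonged to a list, 46 lost the call without 129S1/ImJ replicate 3 and 54 in the fit with 1 group of other strains.

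Most of the 768 genes did not set 129S1/ImJ apart from every strain. Only 59 genes (0.52%), 40 higher (0.352%) and 19 lower (0.167%), were called in the same direction against each of the 5 strains on its own. Counted over probe sets this was 107 (0.475%), which became 185 without C57Bl/6J replicate 1 and 69 without C3H/HeJ replicate 3. Another 100 were called against 4 strains, 167 against 3, 270 against 2, 142 against 1 and 30 against none. Taken strain by strain over all genes, 489 genes were higher (4.31%) and 287 lower (2.53%) in 129S1/ImJ than in A/J. The counts were 377 (3.32%) and 413 (3.64%) against FVB/NJ, and 272 (2.4%) and 401 (3.53%) against C57Bl/6J. Fewer genes were called against DBA/2J, 211 (1.86%) and 216 (1.9%), and against C3H/HeJ, 133 (1.17%) and 143 (1.26%). These 5 comparisons share the same 129S1/ImJ arrays, and the counts were not tested against each other.

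**Figure D1:**
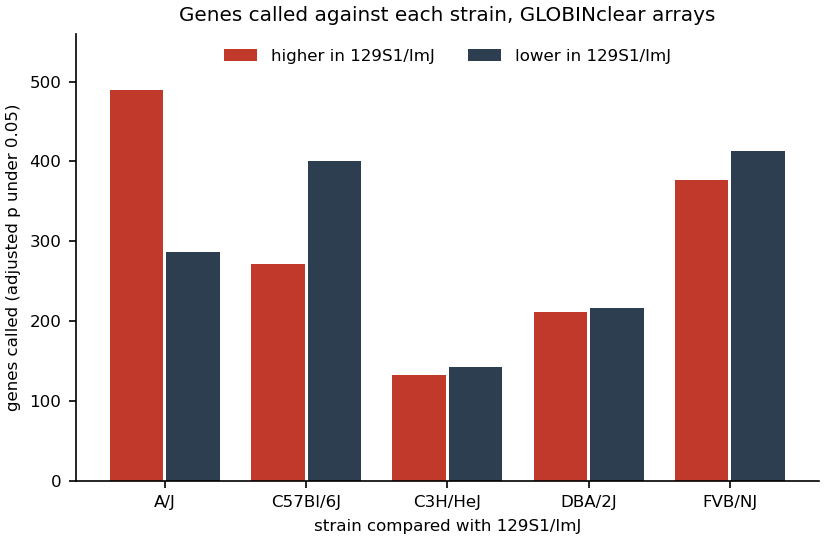
Bars give the number of genes called (limma, adjusted p under 0.05, of 11353 tested) as higher or lower in 129S1/ImJ than in each strain on the x axis, 3 arrays per strain. The tallest bars are the 489 genes higher than in A/J and the 413 lower than in FVB/NJ, and the shortest are the 133 and 143 against C3H/HeJ.

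Gdpd3 and Npy were the genes raised most in 129S1/ImJ blood. Gdpd3 encodes an enzyme of the glycerophosphodiester phosphodiesterase family, which cleaves lysophospholipids. It stood at 13.45, 13.34 and 13.40 on the 3 arrays and at a median of 2.14 on the other 15, with a range of 2.09 to 12.89. The wide range came from FVB/NJ alone, whose mean was 12.87, while DBA/2J, C3H/HeJ, C57Bl/6J and A/J had means of 2.11 to 2.16. Gdpd3 was thus at a high level in 129S1/ImJ and FVB/NJ and at the bottom of the scale in the other 4 strains. The difference from the mean of 5 was 9.11 ± 0.11 (SE; adjusted p = 7.5e-17), and that from FVB/NJ alone was 0.53. With the other strains treated as 1 group its adjusted p was 0.0595.

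Npy encodes neuropeptide Y, a peptide transmitter of neurons and sympathetic nerves that is also stored in the platelets of some rodents. Its values were 10.41, 10.08 and 10.74 in 129S1/ImJ, against a lowest of 2.46, a median of 2.64 and a highest of 3.32 elsewhere. No array of another strain came near the 129S1/ImJ level, and the nearest strain mean, that of A/J, was 3.02. The difference was 7.68 ± 0.13 (adjusted p = 5.81e-15), and it was 6.14 ± 0.12 in whole RNA. Of its 2 tested receptor genes, Npy2r differed by -0.05 (adjusted p = 0.716) and Npy6r by -0.04 (0.706), both near log2 3. Dpp4, which encodes the peptidase that trims neuropeptide Y, differed by 0.42 (0.118). Npy1r, Npy4r, Npy5r and the related hormone gene Pyy lay below the expression filter.

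The third gene in size, 6030458C11Rik, an uncharacterised transcript, was at 8.00, 8.49 and 9.03 in 129S1/ImJ and at 2.25 to 3.95 (median 3.08) on the other arrays. Its difference of 5.46 ± 0.22 was carried by 1 of its 3 probe sets, since the second tested set differed by -0.07 (adjusted p = 0.515). Lmbr1, a gene for a membrane protein named from the limb region locus, was at 5.53, 5.95 and 6.39 against 2.66 to 3.24, again from 1 of 4 sets, the other 3 being below the filter. BC018473, an uncharacterised transcript, was at 6.13, 5.70 and 4.94 against 2.80 to 3.03. In all 3 genes the other strains sat close to the bottom of the scale and no array overlapped. Whether the probes of a set cover bases that differ between strains was not tested, here or for any other gene. A difference in probe binding was therefore not separated from one in expression.

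Tusc1, a small gene proposed as a tumor suppressor, differed in another way, being abundant in every strain. It was at 11.33, 11.47 and 11.33 in 129S1/ImJ and at 7.69 to 9.29 (median 8.63) elsewhere, a difference of 2.71 ± 0.20 (adjusted p = 1.3e-06). Laptm4b, for a lysosomal membrane protein, was at 6.52, 7.06 and 8.61 against 3.70 to 4.59, and its 3 probe sets rose by 2.34 to 3.37. Cks1b, the cell cycle subunit that binds cyclin-dependent kinases, was at 9.87, 10.89 and 9.81 against 6.98 to 9.27, and both of its sets rose, by 2.18 and 2.22. Each of these genes was higher on all 3 arrays than on any other.

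For 7 further genes raised by more than 2 the increase was largest on replicate 3. Crip2, a LIM domain protein gene, was at 7.0, 7.19 and 9.60 against 4.59 to 6.23 elsewhere. Nsun2, which encodes an RNA cytosine methyltransferase, was at 7.48, 7.90 and 9.23 against 5.48 to 7.19. Sirpb1a, a signal-regulatory receptor gene of myeloid cells, was at 4.36, 4.25 and 6.21 against 2.69 to 3.5. The secreted protein gene Crispld2 (4.38, 5.12 and 8.52), the formyl peptide receptor gene Fpr2 (5.14, 5.24 and 8.63), the gelatinase gene Mmp9 (5.78, 5.88 and 8.44) and Selplg, the gene for the selectin ligand PSGL-1 (8.31, 8.14 and 9.68), were likewise highest on replicate 3. In whole RNA Crip2 was called (limma, adjusted p = 0.00253), but the others of these 7 genes were not (from 0.0982 for Nsun2 to 0.375 for Mmp9). On the globin-depleted arrays without replicate 3 the 7 differences were smaller. They were 1.75 for Crip2, 1.65 for Nsun2, 1.61 for Selplg, 1.48 for Sirpb1a, 1.46 for Crispld2, 1.42 for Fpr2 and 1.35 for Mmp9. All 7 were still called, with Selplg closest to the threshold (adjusted p = 0.0488). Neutrophil markers moved with this array, as described below for the list, and their part in these 7 genes was not tested.

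**Figure D2:**
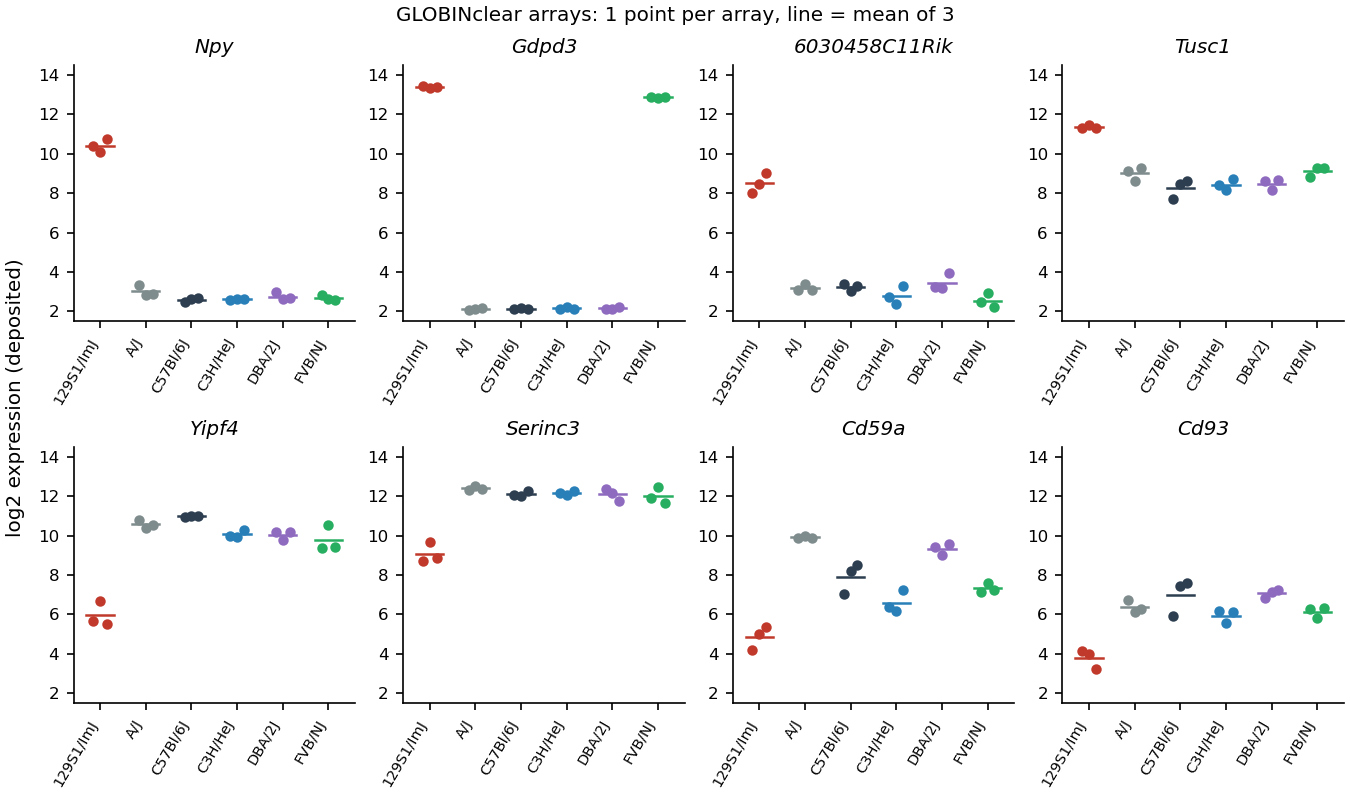
Each point is 1 globin-depleted array, each line the mean of 3, and the y axis is the deposited log2 expression of the gene's representative probe set in the 6 strains. Npy and 6030458C11Rik were high in 129S1/ImJ alone, Gdpd3 in 129S1/ImJ and FVB/NJ (12.87), and Yipf4, Serinc3, Cd59a and Cd93 were lower on the 3 arrays of 129S1/ImJ than on any other.

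Yipf4 was the gene lowered most in 129S1/ImJ blood, followed by Cd59a and Serinc3. Yipf4 encodes a membrane protein of the Golgi with a Yip1 domain. It was at 5.67, 6.67 and 5.53 in 129S1/ImJ, against a lowest of 9.38, a median of 10.26 and a highest of 11.01 elsewhere, and it fell by 4.33 ± 0.24 (adjusted p = 4.39e-08). Its second tested probe set fell by 4.01. None of the other 8 Yip1 family genes tested was called, with differences from -0.18 for Yipf5 to 0.48 for Yif1b.

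Serinc3 encodes a membrane protein of a family that incorporates serine into lipids and restricts retroviral infectivity. Its values were 8.73, 9.66 and 8.87 against 11.64 to 12.50 (median 12.17), a difference of -3.07 ± 0.18 (adjusted p = 6.89e-08). All 6 Serinc3 probe sets were lower, by 1.30 to 5.96 on the log2 scale. One of these averaged 3.07 in 129S1/ImJ and 9.03 in the others. Serinc1 was at 6.27, 7.85 and 5.23 against 6.60 to 9.48, a difference of -1.59 that missed the threshold (adjusted p = 0.097), and Serinc5 differed by 0.01 (0.979).

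Cd59a, the gene for the surface protein that blocks complement's membrane attack complex on red cells, fell by 3.37 ± 0.30. It was at 4.19, 4.99 and 5.35 in 129S1/ImJ and at 6.19 to 9.97 (median 8.18) elsewhere, with strain means from 6.60 in C3H/HeJ to 9.91 in A/J. The strains were therefore spread for this gene, with 129S1/ImJ lowest, and its second probe set fell by 2.36. Cd93, a C-type lectin domain receptor gene, was at 4.13, 3.97 and 3.24 against 5.54 to 7.57, and Cyp2b10, a cytochrome P450 gene best known from liver, was at 2.71, 2.70 and 3.22 against 4.27 to 6.82. Both of these differences were much smaller in whole RNA.

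Rab6a, Trappc2, Nlrx1 and Ghitm were also below every other array. Rab6a, a Golgi GTPase gene, was at 6.24, 7.26 and 7.27 against 7.89 to 10.32, and its 3 sets fell by 0.89 to 2.25. Trappc2, a subunit gene of the TRAPP vesicle tethering complex, was at 6.01, 5.77 and 4.73 against 6.68 to 8.56. Nlrx1, which encodes a mitochondrial NOD-like receptor, was at 4.29, 4.38 and 5.32 against 6.45 to 8.09, a difference of -2.70 ± 0.34. Ghitm, for a mitochondrial inner membrane protein, was at 10.96, 11.44 and 9.18 against 12.57 to 13.24. Its second probe set fell by 0.63, so the size for Ghitm depended on the set.

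The remaining genes of the 15 most lowered outside all 15 other arrays were Trim37, Limd1, Ankrd33b, Xaf1, Btnl10 and Myl9. Their differences were -2.27, -2.25, -2.19, -2.05, -1.98 and -1.96. Called genes that overlapped other strains are not in this ranking, and some fell further, such as Tfrc (-2.73, described below). The ubiquitin ligase gene Trim37 was called on 2 of its 5 sets, and Limd1, a LIM domain gene, on both. The 3 arrays for Xaf1, an interferon-induced partner of XIAP, were at 3.25, 3.95 and 3.69 against 5.04 to 7.01, but a second Xaf1 set differed by -0.21 (adjusted p = 0.714). Ankrd33b and the butyrophilin-like gene Btnl10 had 129S1/ImJ means of 2.58 and 2.62, at the bottom of the scale. With the other strains as 1 group the adjusted p for Ankrd33b was 0.0863.

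**Figure D3:**
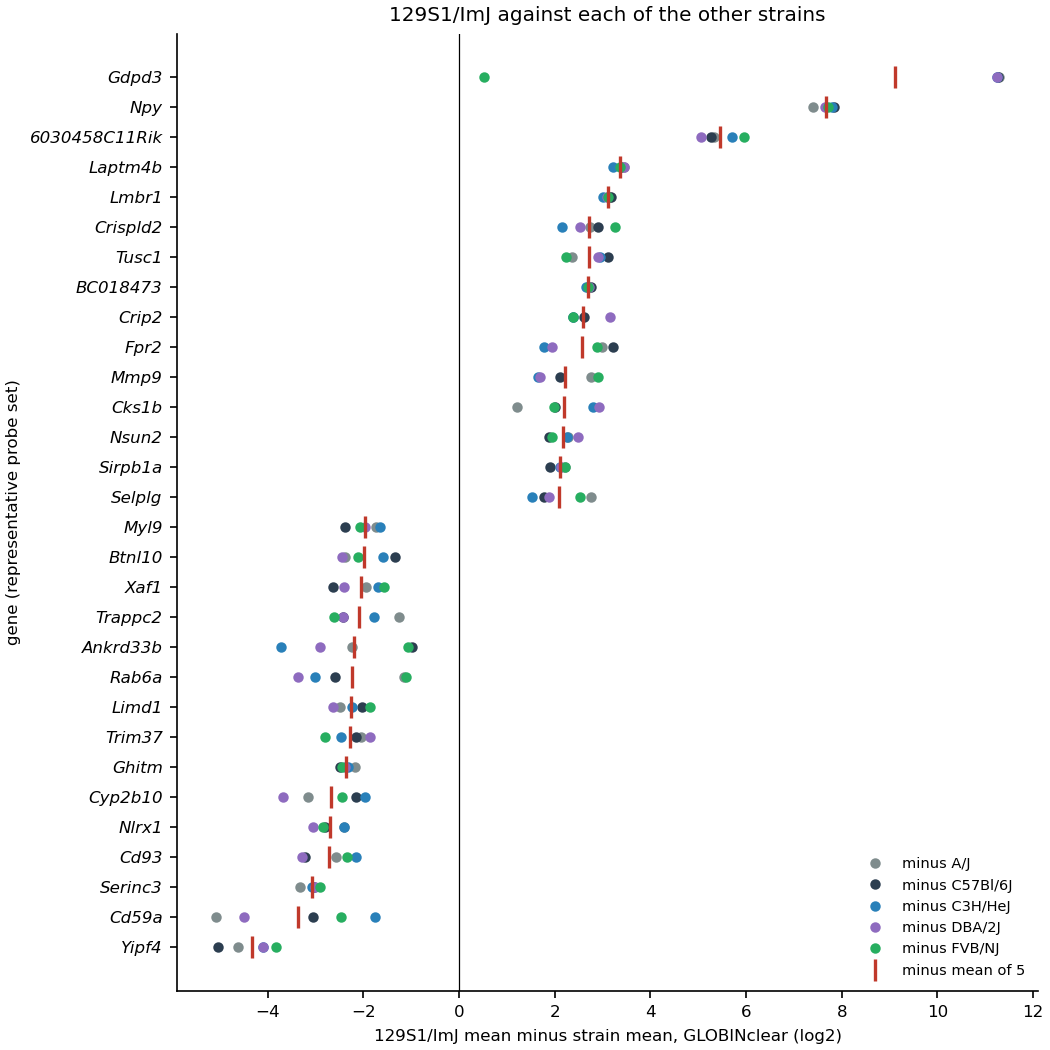
Each row is 1 of the 15 most raised or 15 most lowered called genes outside all 15 other arrays with the same sign in whole RNA. Dots give the 129S1/ImJ mean minus the mean of each other strain, and the tick gives the difference from the mean of 5. Values are in log2 units on globin-depleted arrays (3 per strain). Dots of one row lie close together for Npy and Serinc3, whereas the FVB/NJ dot for Gdpd3 sits at 0.53.

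Across the array, further probe sets mostly kept the sign of the set that represents a gene. Of the 768 called genes, 343 had 563 further tested sets, and 473 of these (84.0%) had the same sign. In the same direction 210 were called, and in the opposite direction 8. The next tested gene along the chromosome was called in 75 of 734 pairs (10.2%), against 6.90% of all placed genes. Both genes had the same sign in 46 of the 75. In 4 neighbouring pairs both genes lay outside all 15 other arrays. These were Cavin2 (-1.83) with Nabp1 (0.59), Wapl (-1.65) with Ccser2 (-1.03), Pgap4 (2.02) with Rnf20 (0.755), and Cbl (-0.95) with Nlrx1 (-2.70). Cavin2 and Nabp1 went in opposite directions, and the number of such pairs was not tested.

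The 5 genes whose values over the 18 arrays were most like those of Npy were Lmbr1 (r = 0.985), 6030458C11Rik (0.978), BC018473 (0.973), Laptm4b (0.955) and Tusc1 (0.936). These coefficients reflect the strain difference, because over the 15 arrays of the other strains r with Npy was -0.24, 0.06, 0.18, -0.17 and 0.49 in the same order. They are descriptions over arrays that share strains, with no test.

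Neutrophil markers were higher in 129S1/ImJ, and mostly so on 1 array. Of 19 tested members 7 were called higher (36.8%) and none lower, with a list median of 1.58 against -0.03 for all genes. Mmp8, the neutrophil collagenase gene, was at 3.97, 4.18 and 7.09 against 2.22 to 4.14, so replicate 1 overlapped the others, replicate 2 lay just above them and replicate 3 far above. The receptor gene for granulocyte colony stimulating factor, Csf3r, was at 7.34, 7.39 and 10.29 against 4.56 to 7.66, and the cytokine gene Il1b was at 5.66, 6.84 and 10.18 against 4.19 to 7.19. For Csf3r and Il1b only replicate 3 lay above all other arrays. The mean of the list was 5.87 and 6.03 on replicates 1 and 2 and 8.77 on replicate 3, against 4.93 to 6.14 elsewhere, where 14 of 15 arrays lay below all 3. Without replicate 3 the count was 3, with Fpr2, Mmp9 and Mmp8 (adjusted p = 0.0241) called, and the median was 0.61. In whole RNA none of the 19 was called, and the list median was 0.86, with the sign kept by 17.

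Other myeloid and stress genes were also led by replicate 3. Among 23 monocyte and macrophage markers 4 were higher (17.4%) and none lower, but the list median was 0.12, and it was -0.03 when arrays were centred on hybridization spike-ins. Chil3, a chitinase-like gene of myeloid cells, was at 4.94, 3.98 and 10.02 against 2.90 to 4.29 and was not called without replicate 3 (adjusted p = 0.0779). Fcgr4, an Fc receptor gene, showed a different order, 4.02, 5.58 and 4.96 against 2.64 to 4.29, and kept its call without replicate 3 (0.0108). Of 30 immediate early and stress response genes 3 were higher (10%) and 2 lower (6.67%), with a median of 0.67, which was 0.22 without replicate 3. The phosphatase gene Dusp1 (6.06, 6.35 and 9.56 against 3.34 to 6.25) lost its call without that array (0.159), while the nuclear receptor gene Nr4a1 (4.68, 4.91 and 4.32 against 3.28 to 4.24) was above every other array and kept it (0.0028). Neutrophil marker levels moved with the monocyte and stress lists on that array, and their part in these counts was not tested.

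Among lymphocyte markers 3 of 23 T cell genes were higher (13%) and none lower, with a median of 0.66. The called members were Ms4a4b, a membrane protein gene of T cells (2.06 ± 0.42), the interleukin-7 receptor gene Il7r (1.93 ± 0.46) and the T cell receptor adaptor gene Lat (1.26 ± 0.24). Il7r was at 8.68, 7.40 and 7.36 against 4.18 to 6.80, with no overlap, whereas Ms4a4b and Lat overlapped other strains. Ms4a4b averaged 9.34 in 129S1/ImJ, 7.48 to 8.83 in 4 strains and 3.35 in FVB/NJ, the one strain against which it was called. With the other strains as 1 group its adjusted p was 0.447. Lat was not called without replicate 3 (adjusted p = 0.0535). Replicate 1 had the highest T cell level of 129S1/ImJ, 6.41, but C57Bl/6J replicate 1 was higher still at 6.61, and without the latter 7 T cell genes were called. Without 129S1/ImJ replicate 1 the count was 1 and the median 0.17, and with the other strains as 1 group it was 0. Of 20 B cell markers none was called, with a median of -0.58 and 6 other arrays above the 129S1/ImJ range of 4.38 to 5.44. Of 21 NK and cytotoxic markers 1 was higher, the receptor gene Cd244a (1.26 ± 0.24), and the median was 0.00.

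Among platelet and megakaryocyte genes those that differed were lower in 129S1/ImJ, apart from Npy, which the list also holds. Of 30 members 10 fell (33.3%), 1, Npy, rose and 19 were not called, with a median of -0.53. Myl9, the myosin light chain gene, was at 10.53, 9.70 and 10.15 against 11.52 to 12.63 (-1.96 ± 0.17), and it was called against each of the 5 strains. Ppbp, the gene for the platelet chemokine precursor, was at 11.77, 11.59 and 10.19 against 11.98 to 13.11, and Treml1, a platelet receptor gene, was at 7.53, 7.24 and 6.93 against 7.66 to 9.27. These 3 genes lay below all 15 other arrays in 129S1/ImJ, and all 3 were called in whole RNA too. F2rl2, the gene for the thrombin receptor PAR3, averaged 2.84 in 129S1/ImJ and 2.95 in A/J, against 5.82 to 7.14 in the other strains. With the other strains as 1 group its adjusted p was 0.0886.

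The level of the platelet list is given without Npy, which is high in 129S1/ImJ alone. It was 9.0, 8.84 and 8.73 on the 129S1/ImJ arrays and 8.89 to 10.02 on the others, of which 14 lay above all 3 and 1, from A/J, within their range. In whole RNA it was 7.57 to 7.86 against 7.88 to 9.27, with no overlap. With Npy included the ranges were 8.80 to 9.04 and 8.69 to 9.78, and 12 of the 15 other arrays lay above. Leaving Npy out gave 10 of 29 lower and a median of -0.54. The count of lower genes was 4 without 129S1/ImJ replicate 3, 15 without C57Bl/6J replicate 1, and 4 with the other strains as 1 group.

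**Figure D4:**
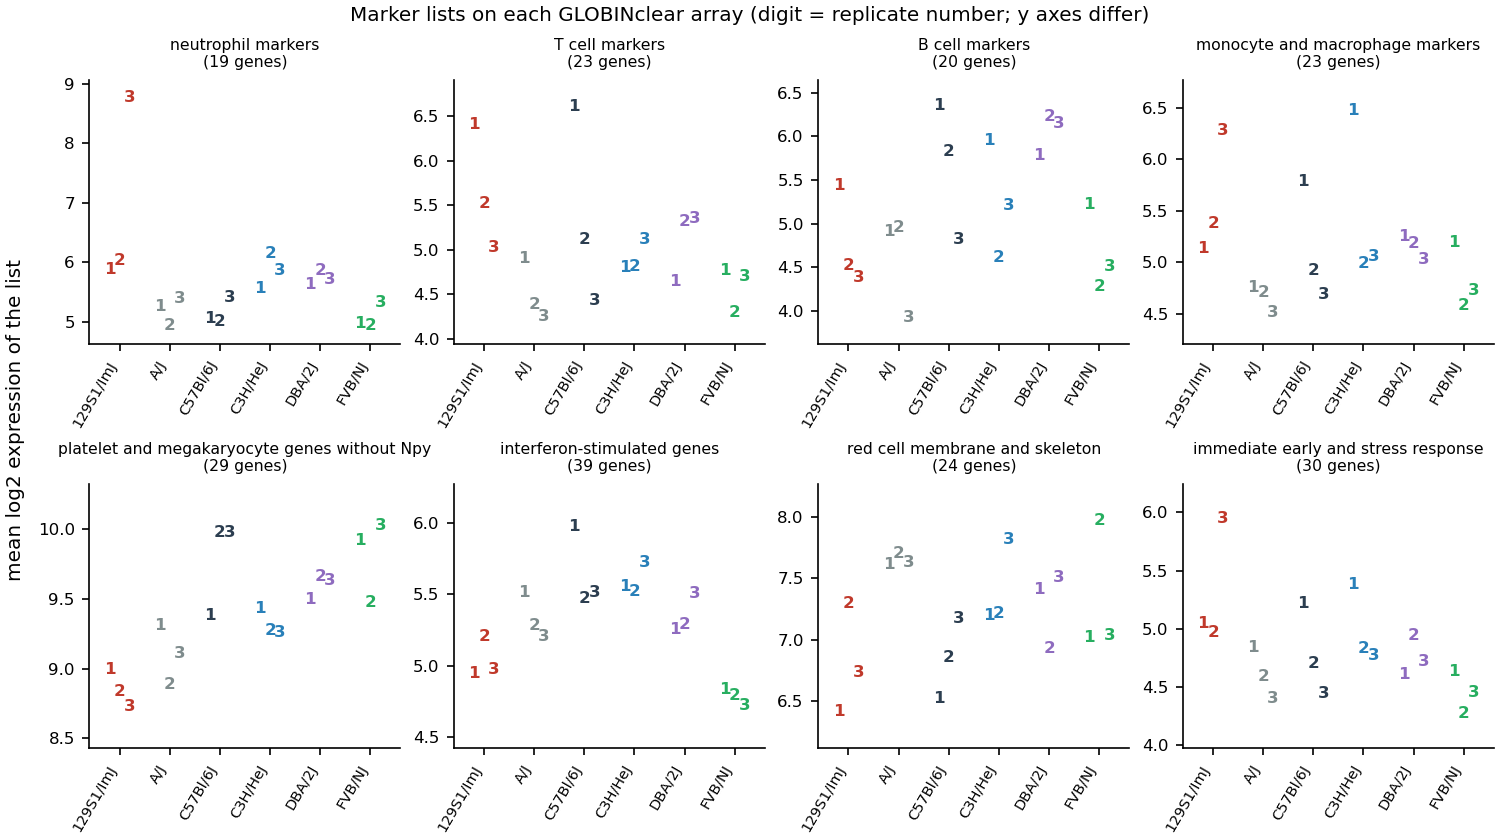
Each digit is 1 globin-depleted array, named by its replicate number, and its height is the mean log2 expression of the tested genes of a list; the y axes differ between panels. Replicate 3 of 129S1/ImJ is highest for neutrophil markers (8.77) and immediate early genes (5.95), 14 of 15 other arrays lie above 129S1/ImJ for platelet genes without Npy, and 12 do for interferon-stimulated genes.

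Interferon-stimulated genes, which cells switch on in response to interferon, were mostly lower in 129S1/ImJ where they differed. Of 39 tested members 10 fell (25.6%) and 1 rose, with a median of -0.12. Irf7, the master regulator of type I interferon genes, was at 4.39, 5.70 and 4.10 against 3.83 to 9.70 (-2.45 ± 0.34), and Usp18, the protease gene that removes ISG15, was at 3.16, 3.56 and 2.53 against 2.75 to 5.95. Both overlapped FVB/NJ, which had means of 4.19 for Irf7 and 3.34 for Usp18, while the other 4 strains averaged 6.87 to 9.19 for Irf7. Oasl2, an oligoadenylate synthetase-like gene, was at 2.84, 2.88 and 2.84 against 3.00 to 7.13, below all others but by little at the low end.

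The list level was 4.95 to 5.20 in 129S1/ImJ, below 12 of the 15 other arrays and above the 3 of FVB/NJ. The member that rose, Ifitm1, an antiviral membrane protein gene, was at 6.31, 6.90 and 11.16 against 3.86 to 7.02, high on replicate 3 like the neutrophil markers. Without replicate 3 it was not called (adjusted p = 0.0637) and 5 members were lower. Leaving out replicate 1 also gave 5, and with the other strains as 1 group the count was 1 and Irf7 was not called (0.262).

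Among red cell genes a few differed by much. Of 24 membrane and skeleton genes 6 were lower (25%) and 1 higher, the glucose transporter gene Slc2a1, with a median of -0.36. Besides Cd59a, the Rh complex genes Rhag (6.03, 7.34 and 5.91 against 6.54 to 9.66) and Rhd (5.17, 7.07 and 5.30 against 6.51 to 8.88) were lower on replicates 1 and 3 and within the other strains' range on replicate 2. The count of lower genes was 1 without replicate 1 and 2 without replicate 3. Slc2a1 was at 5.10, 5.47 and 7.34, and without replicate 3 it differed by 0.82 and was not called (adjusted p = 0.0548). Of 30 erythroid regulators 3 were higher (10%) and 3 lower (10%). The list averaged 9.985 in 129S1/ImJ, and 22.5% of all genes with a mean above 9 were called. Tfrc, the transferrin receptor gene that marks young reticulocytes, fell by 2.73 ± 0.46, to 6.59, 7.89 and 7.64 against 7.45 to 12.38, and C57Bl/6J was also low with a mean of 7.99. With the other strains as 1 group its adjusted p was 0.0819.

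The 3 erythroid regulators that rose did so by little but without overlap. Cat, the catalase gene, was at 13.10, 13.12 and 13.10 against 11.66 to 12.67 (0.84 ± 0.11, adjusted p = 0.000339), nearly equal on the 3 arrays. Isca1, for iron-sulfur cluster assembly, and Ncoa4, the ferritin cargo receptor gene, rose by 0.39 and 0.31. Heme synthesis had 2 of 14 genes lower, Uros and Tspo2, and none higher, and neither was called without replicate 3 (adjusted p = 0.25 and 0.275). The tested sets of the adult globin genes Hbb-b2 (0.46, adjusted p = 0.44) and Hba-a2 (-0.50, 0.379) were not called, nor were the 3 embryonic globin genes.

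In the large housekeeping complexes single members were called, against 3.73% higher and 3.04% lower over all genes. Those shares are not matched for signal level. Of the 360 genes with a mean above 9, 33 were higher and 48 lower (22.5% called), and the ribosomal list averaged 10.35 in 129S1/ImJ. Of 58 oxidative phosphorylation genes 2 were higher (3.45%) and 4 lower (6.9%), with a median of 0.19. Cox5a, a cytochrome c oxidase subunit gene, was at 9.95, 10.03 and 9.15 against 10.63 to 12.04 (-1.57 ± 0.19), and Uqcr11, a complex III subunit gene, was at 10.14, 10.51 and 11.55 against 8.06 to 9.74 (1.67 ± 0.23). Of 40 proteasome genes Psmf1 alone was called (2.5%), the gene for the proteasome inhibitor PI31, at 11.90, 11.71 and 11.92 against 9.68 to 11.18. Among 41 cytosolic ribosomal protein genes 1 was higher (2.44%) and 4 lower (9.76%), with Rpl37a at 12.87, 12.45 and 12.83 against 12.93 to 13.63. Cox5a, Uqcr11, Psmf1 and Rpl37a kept the same direction and call without replicate 3. The ribosomal genes Rps20 (adjusted p = 0.187), Rpl37 (0.149), Rps25 (0.0965) and Rpl7a (0.0506) and the respiratory chain genes Ndufa13 (0.0865) and Ndufs5 (0.258) did not keep the call.

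At the major histocompatibility complex, whose genes present peptides to T cells, 129S1/ImJ shared the level of H2-K1 and H2-D1 with other strains. Of 21 class I and peptide loading genes 3 were higher and none lower, with a median of 0.34. H2-Q10, a class I gene known mainly from liver, was at 4.06, 4.48 and 5.77 against 2.66 to 4.83 (1.73 ± 0.30), with means of 4.01 in C3H/HeJ and 2.70 to 2.99 in the other strains. It kept its call without replicate 3 (adjusted p = 0.0207). H2-K1 was at 11.04, 10.95 and 11.13 in 129S1/ImJ and averaged 11.15 in C57Bl/6J and 11.09 in FVB/NJ, with C3H/HeJ lowest at 6.90. H2-D1 averaged 11.21 in 129S1/ImJ, 11.20 in C57Bl/6J and 11.37 in FVB/NJ, with C3H/HeJ again lowest at 7.68, and its direction depended on the probe set. The mean over all H2-D1 sets gave a difference of -0.59 (adjusted p = 0.0755). Neither H2-K1 (0.0597) nor H2-D1 (0.0629) was called without replicate 3. The class II gene H2-Ea differed by -0.99, with DBA/2J highest at 6.41. Genes of this family share sequence, so probe sets can read more than one of them.

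Other called genes likewise followed a split among strains in which 129S1/ImJ had company. Mndal, an interferon-inducible gene of the Ifi200 cluster, averaged 7.5 in 129S1/ImJ, 6.91 in C3H/HeJ and 7.30 in C57Bl/6J, but 3.16 to 3.20 in A/J, DBA/2J and FVB/NJ. Sult4a1, a sulfotransferase gene, was at 8.15, 7.77 and 5.79 in 129S1/ImJ and averaged 7.5 in DBA/2J, with 2.94 to 3.00 in the other 4 strains. Gsta2, a glutathione transferase gene, averaged 5.54 in 129S1/ImJ and 7.90 in C57Bl/6J, against 3.11 to 3.28 elsewhere. Hbegf, a growth factor gene, was called lower (-1.14), although 129S1/ImJ at 2.17 matched the 2.19 to 2.20 of 4 strains and C3H/HeJ alone was at 7.79. With the other strains as 1 group the adjusted p was 0.262 for Mndal, 0.119 for Sult4a1, 0.55 for Gsta2 and 0.648 for Hbegf. Without replicate 3 that of Gsta2 was 0.0564. Of 34 tested genes known for alleles that differ between inbred strains, Cd244a was higher (2.94%), Car2 and H2-Ea lower (5.88%) and 31 not called, beside shares over all genes of 3.73% and 3.04%. Without replicate 3 Car2 lost its call (adjusted p = 0.155), and with the other strains as 1 group that of H2-Ea was 0.506.

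The whole RNA arrays gave the same sign for 711 of the 768 called genes (6.26% of all tested). Over all 11353 genes tested, called or not, 7027 had the same sign. In whole RNA alone 231 genes were called (2.03%), 103 higher (0.907%) and 128 lower (1.13%), and 421 probe sets (1.87%). Called in both preparations with the same sign were 174 genes (1.53%), 75 higher (0.661%) and 99 lower (0.872%). The same mice gave both, so this repeats the hybridisation and not the animals. Yipf4 was at 6.71, 8.12 and 5.68 in whole RNA against 10.30 to 11.98, and Serinc3 at 7.40, 7.83 and 7.79 against 10.84 to 12.25. Npy was at 8.77, 9.11 and 9.19 against 2.69 to 3.34. For these 3 genes the 129S1/ImJ arrays lay outside all others in both preparations.

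For 152 genes (1.34%) the size of the 129S1/ImJ difference itself differed between the preparations. Over probe sets this was 292 (1.3%), and it was 141 without 129S1/ImJ replicate 1, 193 without A/J replicate 3 and 548 without C57Bl/6J replicate 1. Laptm4b differed by 3.37 after depletion and 1.08 in whole RNA, and Crispld2 by 2.72 and 0.54. Cd93 differed by -2.72 and -0.57, and Cyp2b10 by -2.68 and -0.36. In whole RNA Crispld2 was at 2.90, 2.78 and 4.08 against 2.52 to 2.89, close to the bottom of the scale. Npy also differed between the preparations, by 1.54 ± 0.18 (adjusted p = 0.000484), while Gdpd3 (-0.17, 0.107) and Yipf4 (0.11, 0.835) were not called.

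**Figure D5:**
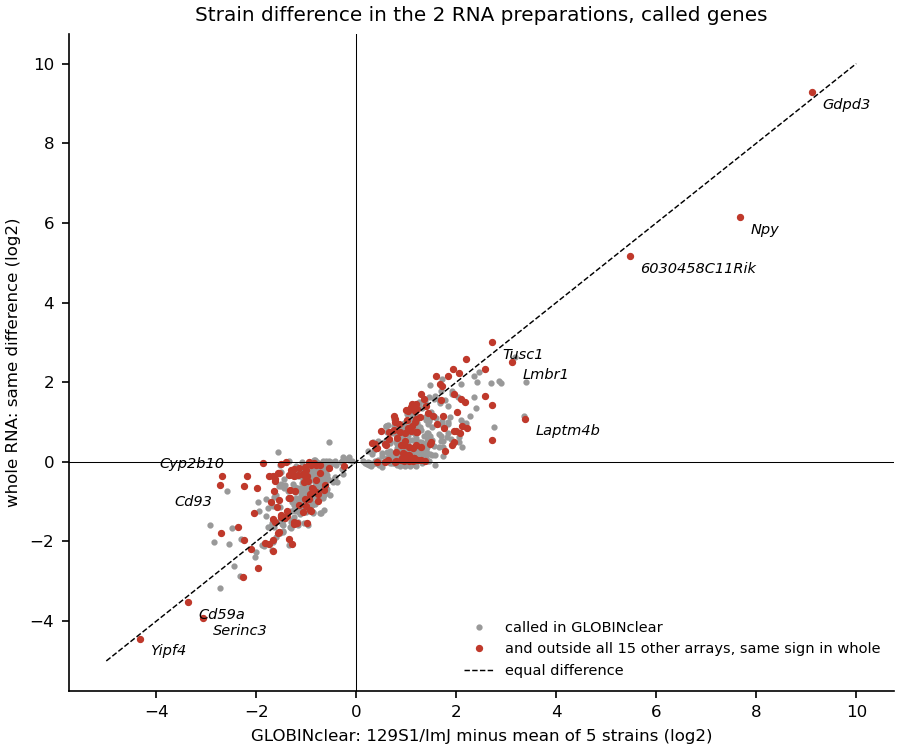
Each point is 1 of the 768 genes called on globin-depleted arrays, with its 129S1/ImJ difference there on the x axis and in whole RNA on the y axis, in log2 units; red points are the 199 genes outside all 15 other arrays with the same sign, and the dashed line marks equal differences. Gdpd3, 6030458C11Rik and Yipf4 lie near the line, while Laptm4b, Cd93 and Cyp2b10 have differences nearer 0 in whole RNA.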

How the data were processed

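Blood RNA of 18 mice was hybridised to 36 Affymetrix arrays, whole and globin-depleted. The submitters' processing notes name GCRMA, MAS5 and affy without versions; the deposited values are log2 expression per probe set, and no source used here gives a genome build. Scanner files were not used here. Probe sequences were not used either, so probes that cover bases differing between strains were not identified. Values were used as deposited. Probe sets with a mean over 36 arrays above 2.89, the median of non-control sets, were tested (22518 of 45101). GEO's platform annotation gave 34945 sets 1 gene symbol, 932 several and 9160 none; a gene was represented by its brightest tested set with 1 symbol (11353 genes). limma 3.58.1 in R 4.3.3 (lmFit, then eBayes with trend) fitted 6 strain means over 18 arrays, and p-values were adjusted over all 22518 sets (Benjamini-Hochberg, threshold 0.05). The difference between preparations was tested on each mouse's difference. The script was tested on simulated data.

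Named genes were the 15 most raised and 15 most lowered among called genes whose 3 arrays lay outside all 15 others with the same sign in whole RNA. Added to these were up to 4 called members per list by moderated statistic. Also added were the 5 genes with the largest difference between preparations, among genes called on globin-depleted arrays that passed that test. The rest were all members of the Npy, Serinc, Yip1 and strain allele lists, further probe sets, and the 5 genes most like Npy. A few further called list members, and the neighbouring pairs, were chosen after their values were seen. The comparison and the lists were chosen with earlier results of these data known. P-values from the fit of strain means rest on the spread between the 3 mice of a strain, pooled over all strains. They do not measure the spread within any single strain. The number of arrays limits the precision. The titles' replicate numbers were not taken to pair mice across strains. Same-numbered deviations correlated with a median r of 0.05 over 45 pairs, from -0.40 to 0.55, with 17 pairs over 0.1. The median was -0.01 for arrays of other strains with other numbers, and whether some pairs shared handling was not tested. Within a strain, the globin-depleted array correlated best with the whole RNA array of its own number for 17 of 18 mice, and the design text calls them paired. Alternatives were other scalings, filters, error models and leaving out each array.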

Additional observations from a re-analysis of the deposited data

Results flagged for a closer look

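For 152 genes the 129S1/ImJ difference itself differed between globin-depleted and whole RNA, tested on each mouse's pair of arrays. Given here are the 5 largest among those also called on the globin-depleted arrays. The difference after depletion minus that in whole RNA was -2.32 for Cyp2b10, 2.29 for Laptm4b, 2.21 for Sult4a1, 2.17 for Crispld2 and -2.14 for Cd93 (limma, adjusted p under 0.05 in each). In all 5 the difference was further from 0 after depletion, which choosing genes called after depletion favours.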

How the results depend on the processing

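Only 3 mice per strain were measured, values near the bottom of the log2 scale have little signal over background, and no array repeats the 129S1/ImJ mice of another cohort. Over probe sets, 1385 were called against the mean of 5 strains, 107 against each strain, 421 in whole RNA and 292 for the difference between preparations; 768 genes were called, and 199 of these lay outside all other arrays with the same sign in whole RNA. Centring on hybridization spike-ins shifted the median by -0.15 and gave 61 probe sets against each strain, 498 genes (141 higher and 357 lower, or 28.3% higher against 55.1%) and 636 probe sets in whole RNA. Treating the other strains as 1 group gave 469 probe sets, 259 genes (67.2% higher) and 123 probe sets in whole RNA, and was not run against each strain. Array weights, fitted with a convergence warning, gave 244 against each strain. Requiring 3 arrays at log2 5 shifted the median by 0.10 and gave 666 in whole RNA. The causes of these changes were not tested. Leaving out each array in turn gave 832 to 2468 probe sets against the mean, 69 to 185 against each strain, 462 to 1391 genes, 191 to 342 genes outside all others, 303 to 503 probe sets in whole RNA and 141 to 548 for the difference between preparations. The replicate numbers were not taken to pair strains, but fits with them as a replicate block gave 1393, 100 and 416 probe sets and 779 genes. The platelet list then had 7 genes lower and the interferon list 11. Of the single genes, H2-D1 reversed to -0.59 when all its probe sets were averaged. List counts under the alternatives, and the platelet list without Npy, were chosen after seeing the data. The median of the 5 strain means gave differences without a count.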
